A study of Mus musculus with 4 samples.

Results

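Lysosomes break down proteins, glycans and lipids in an acid compartment, and the genes described here encode their soluble hydrolases, the proteins of their limiting membrane and a few factors that build them. Of 35 listed genes, 33 were measured among the 30142 genes named on the array. Each is given by 1 array row with a single gene symbol, the brightest by the mean of all arrays. Ctsd and Glb1 were not measured separately, since the rows that name them also name Ifitm10 and Tmppe.

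The cells were 4T1, a mouse mammary carcinoma line that spreads to distant organs and stands in for triple-negative disease. Total RNA was hybridised to 4 whole-transcript arrays. Cells with a scramble control (NC) gave 2 of them. The other 2 came from cells labelled shMCT-1, in which an shRNA against MCT-1 (gene Mcts1, a partner of Denr in restarting translation) was introduced and clones were selected with puromycin. Puromycin is stated for the shMCT-1 clones alone. The submitters call all 4 arrays biological replicates without saying whether each came from its own clone, so p-values measure the spread between these samples, which may be technical. The comparison asks how gene expression differs when MCT-1 is silenced, here within the lysosomal system.

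All values are log2 expression, and differences are shMCT-1 minus NC. The array medians lay between 3.68 and 3.73. Mcts1 itself was 7.86 and 8.05 on the NC arrays and 7.81 and 7.89 on the arrays labelled shMCT-1, a difference of -0.10 (SE 0.122, adjusted p = 0.945, limma). A lower Mcts1 level was thus not detected, and the direction of every difference below rests on the labels. NC replicate 1 stood apart: it differed by more than 1 log2 unit from NC replicate 2 in 830 rows, more than the 311 and 266 rows by which the latter array was that far from the arrays labelled shMCT-1. Values without NC replicate 1 are therefore given beside the differences that moved most. Epithelial markers marked these cells, with Krt18 from 16.43 to 16.73 and Epcam from 12.36 to 12.69. Of 12 macrophage markers, a cell type rich in lysosomes, 7 were below the median row (3.68), among them Adgre1 (3.26 to 3.49) and Ptprc (3.33 to 3.48). Cd68, itself a protein of late endosomes and lysosomes, was well above it, at 10.15 and 8.26 in NC and 8.55 and 9.00 in shMCT-1, and Csf1r was 6.07 and 4.61 in NC and 5.27 and 4.47 in shMCT-1, both highest on NC replicate 1. Cd14 (8.58 to 9.11), Mrc1 (4.47 to 4.75) and Marco (4.08 to 4.42) were also above the median row. The median of the macrophage markers was 3.43 and 3.31 on the NC arrays and 3.48 and 3.36 on those labelled shMCT-1. Fibroblast markers reached 3.93 at most. A pair of epithelial markers had groups far apart, Krt14 with a difference of -1.68 and Cldn7 of 1.66 (adjusted p = 0.669 for each, limma), and their part in the results below was not tested.

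Hydrolases reach the lysosome by a mannose 6-phosphate tag that is added in the Golgi and read by sorting receptors. Membrane proteins such as Lamp1 and Lamp2 shield the membrane and serve autophagy, while the Npc proteins and Mcoln1 let cholesterol and cations out. Many of these genes are known targets of Tfeb and related factors, which bind an E-box in their promoters. In tumours, cathepsins can also be secreted and cut matrix outside the cell.

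Most lysosomal genes were lower in the arrays labelled shMCT-1, although none passed the test after adjustment. Less RNA per cell and fewer cells of a kind cannot be told apart in bulk RNA. Of the 33 genes 23 were lower and 10 higher, with a median log2 difference of -0.24, against 0.014 over all 30142 genes, of which 45.84% were lower. At least 1.5-fold lower were 5 of the 33, Hexa, Scarb2, Lipa, Npc2 and Naglu, against 1.71% of all genes, and 0 were that much higher, against 0.839%. Without NC replicate 1 only Hexa and Scarb2 of the 33 were at least 1.5-fold lower, against 0.74% of all genes, and without NC replicate 2 there were 11, against 3.82%. With limma and Benjamini-Hochberg adjustment over all 65956 rows, 0 of the 33 and 0 of the 30142 genes (0.0%) had an adjusted p under 0.05, and over the 33 the adjusted p ran from 0.882 to 0.995. At an unadjusted p under 0.05, 6 of the 33 were lower, against 3.28% of all genes, and 2 were higher, against 2.32%. In all, 1686 genes met that unadjusted threshold.

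The groups did not overlap for 22 of the 33 genes. Both arrays labelled shMCT-1 lay below both NC arrays for 17 genes, against 16.0% of all genes, and above both for 5, against 19.0%. Since 32 of the 33 had signals above the median row, the same shares were taken over the 17939 genes above it. There, 4.39% were lower and 3.21% higher at an unadjusted p under 0.05, and the groups were apart in 18.4% of genes as lower and 19.0% as higher. Ctss was the 1 gene below the median row. For 10 of the 17 genes apart as lower, NC replicate 1 exceeded NC replicate 2 by more than the gap between the groups. Over all genes this held for 1725 of the 4814 apart as lower. Tfeb was among the 17, with a gap of 0.00083.

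The size of the shift moved with NC replicate 1. It was the highest of the 4 arrays for 21 of the 33 genes (63.64%, against 26.33% of all genes). The lowest array was shMCT-1 replicate 2 for 17 (51.52%, against 28.72% of all genes). The NC arrays were over 0.5 log2 units apart for 10 of the 33, and those labelled shMCT-1 for 1. Without NC replicate 1 the median difference was -0.11, with 22 of 33 genes lower, and without NC replicate 2 it was -0.33, with 25 lower. Leaving out shMCT-1 replicate 1 gave -0.32, and leaving out shMCT-1 replicate 2 gave -0.20. An unadjusted p under 0.05 was found for 3 genes without NC replicate 1 (Hexa, Scarb2 and Npc2), all lower, against 1.48% of all genes as lower, and for 14 without NC replicate 2, all lower, against 5.19%. Leaving out either array labelled shMCT-1 left 4 genes (replicate 1, 2 of them lower) or 3 (replicate 2, all lower), against 1.71% and 1.54% of all genes as lower. The part of NC replicate 1 in the difference between the groups was not tested beyond these values. For 19 of the 33 the difference was below 0 whichever array was left out, against 22.6% of all genes. For 6 it was above 0 whichever array was left out, against 8298 of all 30142 genes.

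**Figure D1:**
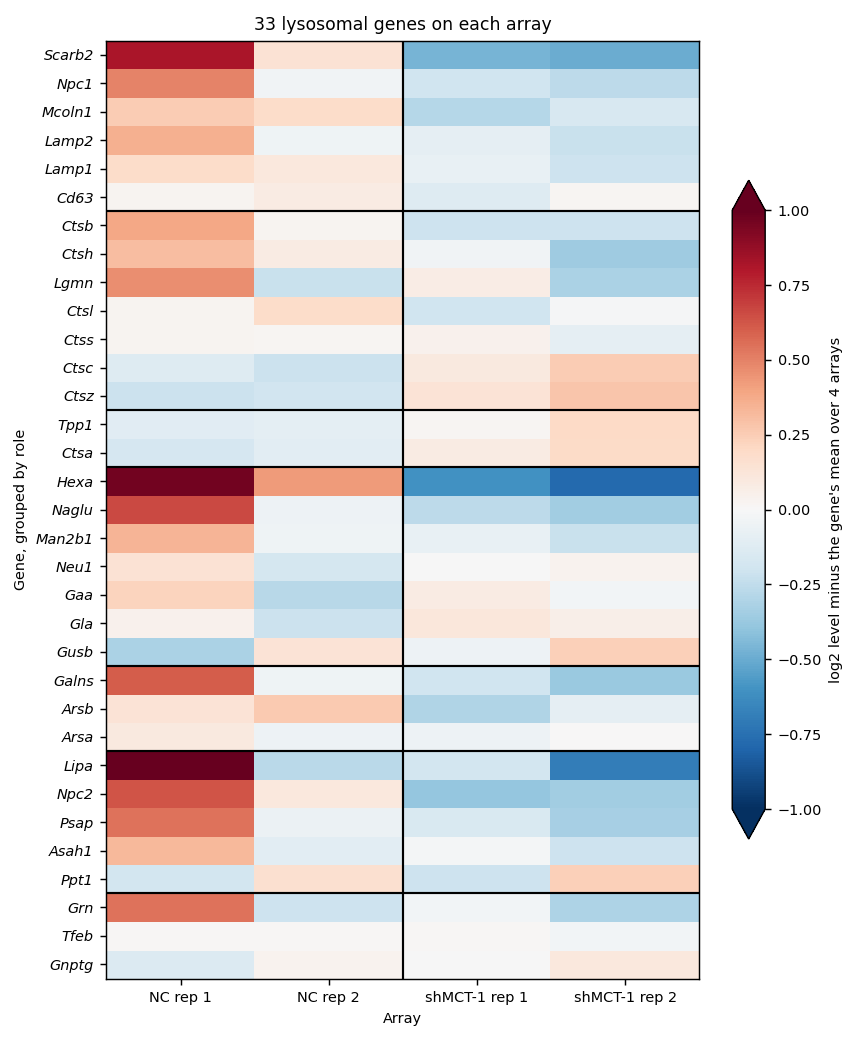
Log2 level of the 33 measured lysosomal genes (rows, grouped by role and parted by black lines) on the 4 arrays (columns), each shown as its difference from the gene's mean over the arrays, with the colour scale clipped at 1 log2 unit either way. NC replicate 1 was the highest array for 21 of the 33 genes. Both arrays labelled shMCT-1 were above both NC arrays for Ctsz, Ctsc, Ctsa, Tpp1 and, by a narrow margin, Gla.

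All 6 membrane proteins were lower in the arrays labelled shMCT-1. The groups were apart for each of them, against 16.0% of all genes as lower. Scarb2, the receptor that carries glucocerebrosidase to the lysosome, was 9.66 and 8.98 in NC and 8.37 and 8.34 in shMCT-1. The arrays labelled shMCT-1 nearly coincided, below a wide NC pair. Its level was 1.95-fold lower (log2 difference -0.96, SE 0.243, 95% interval -1.60 to -0.32, unadjusted p = 0.0121), and the difference was -0.62 without NC replicate 1. Mcoln1, the cation channel that releases calcium from lysosomes, was 6.90 and 6.83 in NC and 6.36 and 6.49 in shMCT-1. Here both pairs were tight, and the difference of -0.44 (SE 0.112, unadjusted p = 0.0123) was -0.41 without NC replicate 1. Arrays of Lamp1, an abundant glycoprotein of the lysosomal membrane, read 15.13 and 15.05 in NC and 14.87 and 14.74 in shMCT-1.

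The Lamp1 difference of -0.29 (SE 0.113, 95% interval -0.59 to 0.0087) exceeded the gap between the replicates of either group. Npc1, which passes cholesterol out of the lysosome, was 7.30 and 6.77 in NC and 6.61 and 6.54 in shMCT-1, so its difference of -0.46 was smaller than the gap between the NC arrays and shrank to -0.20 without NC replicate 1. Lamp2, needed for the fusion of autophagosomes with lysosomes, showed the same order at 13.42 and 13.02 in NC and 12.98 and 12.84 in shMCT-1 (difference -0.31, and -0.11 without NC replicate 1). Cd63, a tetraspanin of late endosomes and exosomes, differed by -0.12. The groups were only 0.046 apart for Lamp2 and 0.013 for Cd63, in each less than the replicates of either group. Across the 6 the median difference was -0.38, and -0.22 without NC replicate 1.

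**Figure D2:**
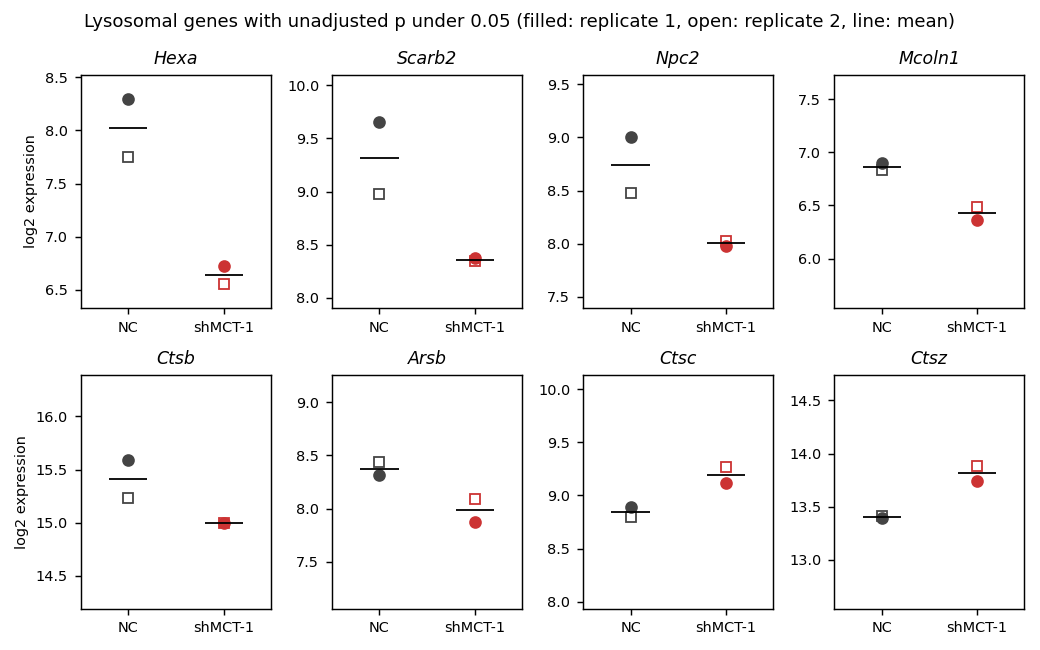
Log2 expression on each array (points; filled for replicate 1, open for replicate 2; black line for the group mean) of the 8 lysosomal genes with an unadjusted limma p under 0.05, on axes of equal span. Hexa, Scarb2, Npc2, Mcoln1, Ctsb and Arsb were lower and Ctsc and Ctsz higher in the arrays labelled shMCT-1.

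Cysteine proteases went both ways. Ctsb, the cathepsin most often tied to matrix breakdown by tumours, was 15.59 and 15.23 in NC and 15.00 and 15.00 in shMCT-1. Both shMCT-1 arrays lay below the lower NC array, and the level was 1.33-fold lower (log2 difference -0.41, SE 0.154, unadjusted p = 0.0474), with -0.23 without NC replicate 1. Ctsb lies on chromosome 14, where the median difference of 473 genes above the median row was -0.11. Ctsh, an aminopeptidase, read 11.67 and 11.44 in NC and 11.32 and 11.00 in shMCT-1, a difference of -0.39 (SE 0.163). Values of Ctsl, a strong endopeptidase, were 17.35 and 17.51 in NC and 17.12 and 17.31 in shMCT-1, which were apart by a narrow margin (difference -0.21, SE 0.130).

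Ctsz and Ctsc were the cysteine proteases with higher levels. Ctsz, a carboxypeptidase, was 13.40 and 13.42 in NC and 13.75 and 13.89 in shMCT-1. Its NC arrays agreed within 0.021, and it was 1.33-fold higher (log2 difference 0.41, SE 0.112, 95% interval 0.12 to 0.70, unadjusted p = 0.0162). Ctsc, the dipeptidyl peptidase that activates granule proteases of immune cells, was 8.89 and 8.80 in NC and 9.11 and 9.27 in shMCT-1, 1.27-fold higher (log2 difference 0.35, SE 0.117, unadjusted p = 0.0344). Leaving out NC replicate 1 gave differences of 0.40 for Ctsz and 0.39 for Ctsc, and leaving out shMCT-1 replicate 2 gave 0.34 and 0.27. With 1 array left out, both had an unadjusted p under 0.05 only where that array was shMCT-1 replicate 1. Lgmn, an asparaginyl endopeptidase, differed by -0.24 and turned to 0.11 without NC replicate 1. Ctss, the cathepsin of antigen-presenting cells, was near the floor of the array at 3.43, 3.42, 3.45 and 3.31, and its difference of -0.047 says little.

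The serine peptidases also had higher levels. Ctsa, which binds and protects Neu1 and Glb1, was 9.04 and 9.10 in NC and 9.29 and 9.40 in shMCT-1. Those groups were apart, with a difference of 0.27 (SE 0.109, unadjusted p = 0.0580). Tpp1, which removes tripeptides from protein ends, differed by 0.22 (SE 0.117), also with the groups apart. Ctsz and Ctsa lie on chromosome 2, whose 1044 genes above the median row had a median difference of 0.091, and Ctsc and Tpp1 on chromosome 7, where that median was -0.0093 over 1008 genes.

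**Figure D3:**
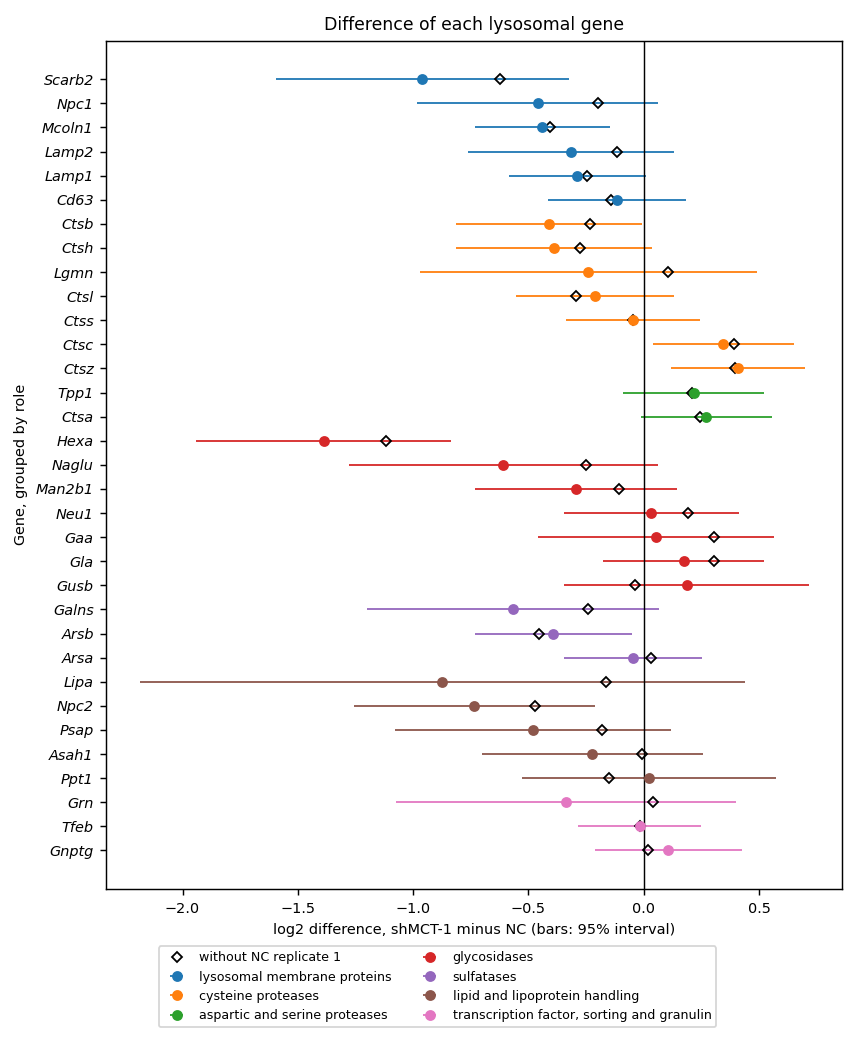
Log2 difference, shMCT-1 minus NC, of each measured lysosomal gene (coloured points by role, bars for limma's 95% interval, n = 2 arrays a group) with the difference without NC replicate 1 (open diamonds). The 6 membrane proteins lie left of 0 with and without that array, and Hexa is the farthest from 0 at -1.39.

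Among glycosidases, Hexa held the largest difference of the 33 genes. This gene encodes the alpha subunit of beta-hexosaminidase, which degrades the ganglioside that builds up in Tay-Sachs disease. Its values were 8.30 and 7.76 in NC and 6.72 and 6.55 in shMCT-1, so each shMCT-1 array was more than 1 log2 unit below the lower NC array. The level was 2.62-fold lower (log2 difference -1.39, SE 0.212, 95% interval -1.94 to -0.83, unadjusted p = 0.00154, adjusted p = 0.882, limma). With 1 array left out the difference ran from -1.66 to -1.12, and the unadjusted p stayed under 0.05 in the fit and in all 12 alternatives to it.

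Naglu, which trims heparan sulfate, was 6.01 and 5.30 in NC and 5.08 and 5.01 in shMCT-1. NC replicate 1 was well above the other 3 arrays, and the difference of -0.61 (SE 0.256) became -0.25 without it. Man2b1, the lysosomal alpha-mannosidase, differed by -0.30 with the groups apart, less than the 0.38 between the NC arrays, and by -0.11 without NC replicate 1. The remaining glycosidases showed small differences in the other direction, at 0.19 for Gusb (beta-glucuronidase), 0.17 for Gla (alpha-galactosidase), 0.053 for Gaa (the glycogen-degrading alpha-glucosidase) and 0.033 for Neu1 (sialidase). Gla alone of these had its groups apart, by 0.019, less than the 0.26 between its NC arrays. Its difference was 0.30 without NC replicate 1 and 0.043 without NC replicate 2. Signs of Gusb, Gaa and Neu1 turned when 1 array was left out, and that of Neu1 also after a further quantile normalisation (-0.035).

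All 3 sulfatases had differences below 0. Arsb, which cuts sulfate from dermatan sulfate, was 8.31 and 8.44 in NC and 7.88 and 8.09 in shMCT-1, a difference of -0.39 (SE 0.130, unadjusted p = 0.0314), and NC replicate 2 was its highest array. A dimmer row of Arsb, with values from 4.24 to 4.32, differed by 0.014, so the rows of this gene disagree. Galns, which acts on keratan sulfate, was 8.39 and 7.74 in NC and 7.59 and 7.42 in shMCT-1 (difference -0.57, SE 0.241), and -0.24 without NC replicate 1. Arsa, which acts on sulfatide, differed by -0.047, and by 0.031 without NC replicate 1.

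Of the 5 genes of lipid handling 4 were lower, and their median of -0.48 was -0.16 without NC replicate 1. Npc2, the soluble carrier that hands cholesterol to Npc1, was 9.00 and 8.48 in NC and 7.98 and 8.02 in shMCT-1. Both shMCT-1 arrays fell below NC, 1.66-fold lower on average (log2 difference -0.74, SE 0.199, 95% interval -1.26 to -0.21, unadjusted p = 0.0157), with -0.47 without NC replicate 1. Lipa, the acid lipase that frees cholesterol from its esters, was 9.81 and 8.39 in NC and 8.49 and 7.97 in shMCT-1, values singled out after they were seen. Here the groups overlapped, the NC arrays differed by 1.42, and the difference of -0.87 (SE 0.501) became -0.16 without NC replicate 1. Psap, the precursor of the saposins, differed by -0.48 with the groups apart, and by -0.18 without that array. Asah1, the acid ceramidase, differed by -0.22 with overlapping groups, and by -0.0091 without NC replicate 1. Ppt1, which removes palmitate from proteins, differed by 0.024, with a sign that turned under median centring (-0.0023) and a further quantile normalisation (-0.0084).

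A difference in Tfeb, the transcription factor of lysosomal genes, was not detected. Its level was 4.40 on both NC arrays and 4.39 and 4.36 in shMCT-1, a difference of -0.018 with a 95% interval from -0.29 to 0.25. Its activity is set largely by where the protein sits in the cell, which arrays do not measure. Grn, the progranulin that is cut into granulins in the lysosome, was 11.67 and 10.92 in NC and 11.10 and 10.82 in shMCT-1. Its groups overlapped, and the difference of -0.34 turned to 0.041 without NC replicate 1. Gnptg, a subunit of the enzyme that builds the mannose 6-phosphate tag, differed by 0.11 with overlapping groups, and by 0.019 without that array.

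Location on chromosomes was set beside these values. Chromosome 8 held 5 of the 33 genes, Lamp1, Mcoln1, Man2b1, Galns and Asah1, with a median difference of -0.30. The 734 genes of that chromosome above the median row had a median of -0.13, the lowest of the 16 chromosomes with such lysosomal genes. Of the 32 lysosomal genes above the median row, 23 were below the median of their own chromosome, by a median of -0.16 over all 32. The part of chromosomal shifts in the result was not tested beyond these values.

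Promoters were read because many lysosomal genes share the E-box bound by Tfeb and its relatives. RefSeq windows (GRCm38.p6, 250 bases before to 50 after the start) matched 28 of the 33 genes. The letters CACGTG, which read the same on both strands, were in 10 of these 28 (35.71%), against 8.09% of 27025 genes with such a window. The longer GTCACGTG, searched on both strands and overlapping the first, was in 8 (28.57%), against 2.55%. The stretches before the start site of 4 genes follow, with CACGTG in capitals, chosen to show genes with a lower (Lamp1, Mcoln1, Naglu) and a higher (Ctsa) level that carry the same letters. They lie at chr8:13159050-13159155 for Lamp1, chr8:3500398-3500503 for Mcoln1, chr11:101069971-101070076 for Naglu and chr2:164833711-164833772 for Ctsa, all on the plus strand.
Lamp1: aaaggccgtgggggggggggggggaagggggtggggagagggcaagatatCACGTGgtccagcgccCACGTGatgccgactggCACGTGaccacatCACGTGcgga
Mcoln1: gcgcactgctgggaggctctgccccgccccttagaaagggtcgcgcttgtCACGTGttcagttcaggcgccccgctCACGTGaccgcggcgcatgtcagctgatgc
Naglu: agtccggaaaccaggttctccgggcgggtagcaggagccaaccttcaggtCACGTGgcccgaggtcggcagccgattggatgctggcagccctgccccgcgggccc
Ctsa: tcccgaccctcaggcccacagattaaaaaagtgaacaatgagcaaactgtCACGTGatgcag

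Lamp1 held 4 copies in that stretch, the first 61 bases before the start, and Mcoln1 held 2, while Naglu and Ctsa held 1 each. Past its printed stretch, the Ctsa window held a further copy, beginning 5 bases after the start. Genes with these letters lay on both sides of 0. Of the 10 genes with CACGTG, 6 were lower and 4 higher, with a median difference of -0.13. Of the 18 without it in their windows, 12 were lower and 6 higher, with a median of -0.21. The 5 genes without a window, Ctsb, Ctsh, Galns, Asah1 and Npc1, were all lower and are in neither count. The genes with the 4 lowest differences, Hexa, Scarb2, Lipa and Npc2, did not have these letters in the windows searched. A match describes letters in a window and not binding.

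Among other genes of the lysosomal system, most were lower in the lists of hydrolases, proton pump, cathepsin inhibitors and autophagy. Directions were mixed in sorting and nutrient sensing. Of 34 further hydrolases and membrane proteins 30 were measured, 25 of them lower, with a median difference of -0.25 that was -0.10 without NC replicate 1. At an unadjusted p under 0.05, 8 were lower and 1 higher, against 3.28% and 2.32% of all genes, and in all 1 gene met that threshold without NC replicate 1, where 1.48% of all genes were lower and 1.03% higher. Leaving out shMCT-1 replicate 1 gave a median of -0.291, and leaving out shMCT-1 replicate 2 gave -0.285. The lowest p values were those of Pla2g15, the lysosomal phospholipase (8.58 and 8.30 in NC, 7.69 and 7.77 in shMCT-1, difference -0.72, SE 0.139), and Hgsnat, an acetyltransferase of heparan sulfate breakdown (10.07 and 9.86 in NC, 9.49 and 9.50 in shMCT-1, difference -0.47, SE 0.122). In both, all shMCT-1 arrays were below all NC arrays. Of the 8 lower genes with an unadjusted limma p under 0.05, Pla2g15, Hgsnat, Aga and Tmem192 lie on chromosome 8, the chromosome with the median of -0.13. So do Atp6v1b2, Atp6v0d1 and Vps35 below. The part of that shift in the differences of these genes was not tested.

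Of 14 measured subunits and partners of the vacuolar proton pump, which acidifies the lysosome, 11 were lower, but the median was close to 0 at -0.075 (-0.16 without NC replicate 1). An unadjusted p under 0.05 was found for 4 of them, all lower, against 3.28% of all genes. Atp6v1b2 was 12.73 and 12.75 in NC and 12.00 and 12.17 in shMCT-1 (difference -0.65, SE 0.115), tight in both groups and -0.66 without NC replicate 1. Atp6v0d1 was 11.41 and 11.00 in NC and 10.47 and 10.23 in shMCT-1 (difference -0.85, SE 0.184).

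Of the 14 sorting factors 7 were higher, with a median of 0.0083 whose sign turned to -0.054 without NC replicate 1. The lowest p was that of Igf2r, the large mannose 6-phosphate receptor, which was 9.94 and 9.91 in NC and 9.46 and 9.24 in shMCT-1 (difference -0.58, SE 0.124), whereas Vps35, a retromer subunit that recycles such receptors, differed by -0.27. Of 17 genes of the Tfeb family and nutrient sensing, 8 were higher and 9 lower, with a median of -0.012 and 0 at an unadjusted p under 0.05. Rragc, a GTPase of that pathway, differed by -0.16, and the Tfeb relatives Tfe3 and Mitf by -0.16 and -0.025, which were -0.075 and 0.14 without NC replicate 1.

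Cathepsin inhibitors had 6 of 7 lower, at a median of -0.082, but 4 of the 7 were below the median row. Only 3 were lower whichever array was left out, against 22.6% of all genes. The cystatin Cstb differed by -0.21 and Cst7, which was below the median row, by -0.25. In autophagy 13 of 16 measured genes were lower at a median of -0.16, which was -0.089 without NC replicate 1. Ulk1, the kinase that starts autophagy, differed by -0.35 (SE 0.127, unadjusted p = 0.0422) and Uvrag, which promotes autophagosome maturation, by -0.31. None of the genes in these 6 lists had an adjusted p under 0.05 in limma, and the lowest was 0.882.

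**Figure D4:**
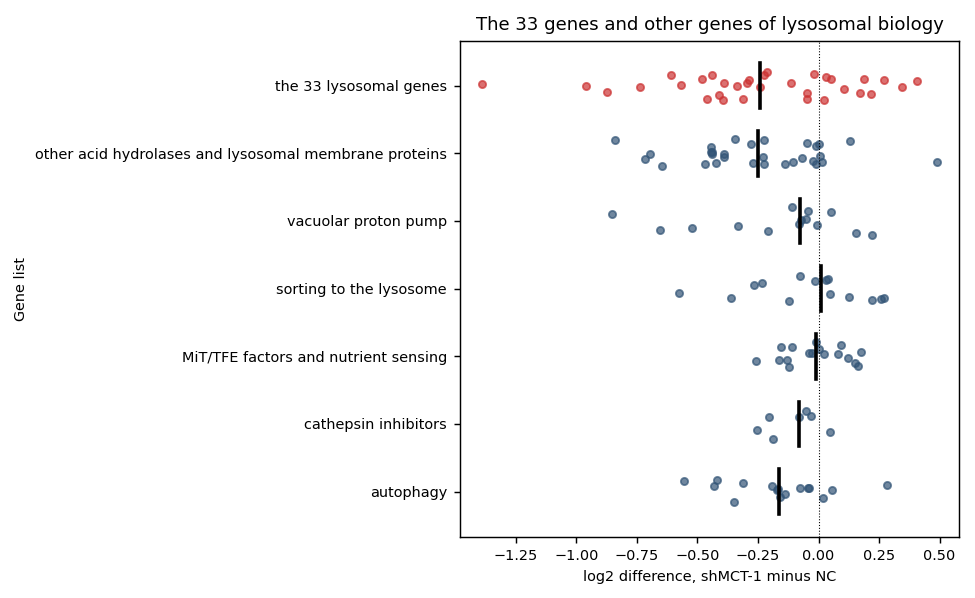
Log2 difference, shMCT-1 minus NC, of each measured gene (points, spread vertically for visibility) in the 33 lysosomal genes and 6 further lists, with the median of each list as a black bar. The medians were -0.24 for the 33 genes, -0.25 for other hydrolases and membrane proteins, -0.16 for autophagy and between -0.082 and 0.0083 for the other 4 lists.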

How the data were processed

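The authors deposited log2 expression values of 4 arrays at the gene level, and the submitters' processing notes name RMA and Affymetrix Expression Console. Neither software versions nor an annotation build were stated. Values ran from 1.29 to 19.9 and were used as deposited, and 0 columns were left out. The probe table named 30604 of 65956 rows by 1 symbol, repeats of a symbol counting once, and 827 symbols were updated by gene ID (GRCm38.p6 gene table). Groups came from the titles. limma 3.58.1 in R 4.3.3 (lmFit, eBayes without trend) was fitted on all rows, two-sided, with Benjamini-Hochberg adjustment, a threshold of 0.05 and 2 residual degrees of freedom, and was tested on simulated data. The number of arrays limits the precision. The members and lists were chosen with earlier results of these data known, so lists are described by counts and medians without a test. Values on every array were set for the 14 members with the lowest unadjusted p and for Lamp1, Lamp2, Ctsd, Ctsb, Ctsl, Tfeb and Grn (Ctsd had no row of its own), and in each other list the 2 genes of lowest p were named, with Tfe3 and Mitf.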

Additional observations from a re-analysis of the deposited data

How the results depend on the processing

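No gene had an adjusted p under 0.05 in limma under any of 12 alternatives, which covered moderation, a filter on dim rows, scaling, the row taken per gene, the replicate block and leaving out each array in turn. With 2 arrays a group, small differences cannot be told from replicate spread. The lysosomal genes with an unadjusted p under 0.05 numbered 4 without moderation and 15 with the replicate block (13 lower and 2 higher, where 5.84% of all genes were lower and 5.71% higher), and from 3 to 14 with 1 array left out. Of the 4 without moderation, 2 were lower (Mcoln1 and Hexa) and 2 higher (Ctsz and Ctsa). In that setting 2.92% of all genes were lower and 2.86% higher. Same-numbered arrays deviated together, with a correlation of 0.42 over all rows and 0.56 over the brighter rows, those above the median row. The labels say nothing of a shared batch, and 2 pairs cannot settle it. For the other lists the counts at that threshold were, without moderation, 2 for hydrolases, 2 for nutrient sensing and 1 for cathepsin inhibitors. The shares of all genes there were the 2.92% lower and 2.86% higher given above. Sorting had 3 after quantile normalisation, where 3.97% of all genes were lower and 2.06% higher. It had 2 with the replicate block, against 5.84% and 5.71%. Autophagy had 0 with a variance trend (2.62% of all genes lower and 2.08% higher), a dim-row filter (3.35% and 2.39% of 17939) or quantile normalisation. There were 2 after median centring, against 3.88% and 1.77% of all genes, and 6 with the replicate block, against 5.84% and 5.71%. The nutrient sensing median was -0.038 after median centring, and that of cathepsin inhibitors -0.19 without dim rows.

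With 1 array left out, the median of the 33 ran from -0.33 to -0.11 and that of other hydrolases from -0.42 to -0.10. Medians ran from -0.16 to -0.038 for the proton pump and from -0.032 to 0.022 for nutrient sensing. Those of cathepsin inhibitors ran from -0.22 to -0.092 and those of autophagy from -0.22 to -0.089. The sorting median ran from -0.062 to 0.034, and was also -0.040 after quantile normalisation and -0.018 after median centring. The 1.5-fold counts without each array were chosen after seeing the data and ran from 2 to 11 genes. The sign of 8 lysosomal genes turned, with ranges from -0.12 to 0.031 for Arsa, -0.12 to 0.020 for Ctss, -0.20 to 0.30 for Gaa, -0.71 to 0.041 for Grn, -0.040 to 0.41 for Gusb, -0.59 to 0.11 for Lgmn, -0.13 to 0.19 for Neu1 and -0.20 to 0.25 for Ppt1. Mitf ran from -0.19 to 0.14. Neu1 was -0.035 and Ppt1 -0.0084 after quantile normalisation, and Ppt1 -0.0023 after median centring. The cause was not tested.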
